A study of Rattus norvegicus with 6 samples.

Results

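The heat shock proteins and chaperonins are the proteins that fold other proteins and keep them folded. Their genes were picked out by symbol: every listed gene whose name begins with Hsp followed by a letter from a to e or a digit, with Dnaja, Dnajb or Dnajc and a digit, with Cct2 to Cct8 or with Pfdn and a digit, and Tcp1. This gave 85 of the 17327 genes in the files, namely 3 HSP90 genes, 13 HSP70 genes, 8 small heat shock protein genes, 2 HSP cofactor genes, the genes of HSP60 and HSP10, 43 DNAJ genes (4 of class A, 13 of class B and 26 of class C), 10 CCT genes and 4 prefoldin genes. The RNA came from cultured primary Schwann cells (the myelinating glia of peripheral nerve) isolated from sciatic nerves of adult female Wistar rats. Both groups had been grown with forskolin, which raises cAMP, and with a neuregulin growth factor, and were then starved for 18 h in 2% serum with 10 μM forskolin. The NRG1 group received 10 nM soluble NRG1β1 for 6 h and the mock group received the same volume of its buffer (PBS with BSA) for 6 h. Each of 3 independent cell preparations gave 1 mock and 1 NRG1 sample with the same replicate number, so n = 3 per group.

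Chaperones bind unfolded protein chains and release them in cycles driven by ATP. HSP70 proteins take up nascent or unfolded chains together with DNAJ proteins, which deliver the chain and stimulate ATP hydrolysis, and HSP90 acts later on kinases and steroid receptors. The ring-shaped chaperonins enclose a chain in a chamber: HSP60 with its lid HSP10 in mitochondria, and the CCT ring, supplied by prefoldin, with newly made actin and tubulin in the cytosol. Small heat shock proteins hold unfolded chains without ATP. In the endoplasmic reticulum (ER), Hspa5 (BiP) and Hsp90b1 (GRP94) fold secreted and membrane proteins, which in Schwann cells include the myelin proteins.

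Counts on genes ranged from 6821590 to 15475018 per library. Levels are given as CPM, the count as a share of a library of 1e+06 counts after TMM scaling, and a level of 3 counts, the floor, lay between 0.194 and 0.440 CPM. All 6.0 Schwann cell markers reported here were counted, and their summed level was 2881 and 2726 CPM in the mock and NRG1 sample of replicate 1 and between 5186 and 6686 CPM in the other 4. Of these markers S100b, Egr2 and Mbp fell with NRG1 by the test used below, with log2 fold changes of -0.58, -1.71 and -1.07, and Sox10, Ngfr and Erbb3 did not pass. Replicate 1 stood apart in a further way. Fibroblast and mural cell genes were high in both of its libraries: Thy1 had 9493 and 8576 counts, Dcn 4574 and 3203, Lum 174 and 111 and Rgs5 140 and 128, and these genes had 0 counts in all 4 libraries of replicates 2 and 3. The summed level of the 6 fibroblast markers was 53425 and 57718 CPM in replicate 1 and from 13693 to 22332 CPM in the other libraries, with Col1a1 making up most of the latter, and that of the 4 mural markers was 3044 and 3099 CPM against 223 to 408 CPM. In replicates 2 and 3 nearly all of the mural sum was Pdgfrb, at 402 and 312 CPM in mock and 228 and 223 CPM in NRG1 samples 2 and 3. Des, another of the 4, stayed under 1 CPM in all libraries. Within pairs the sums also differed between mock and NRG1: the fibroblast sum went from 22332 to 13693 CPM in pair 2 and from 14063 to 13926 CPM in pair 3, and the mural sum from 408 to 229 CPM and from 313 to 223 CPM. Col3a1 had log2 ratios of 0.05, -1.59 and -1.38 in pairs 1, 2 and 3, with a fitted log2 fold change of -0.98 (SE 0.25, adjusted p = 0.0118) that did not pass. Of 6 macrophage and 4 endothelial markers, 3 each stayed under 1 CPM in all libraries, and the summed levels ranged from 3.23 to 10.3 CPM and from 6.00 to 14.9 CPM. The mock and NRG1 samples of a pair came from the same preparation and are compared within it below, and the result of a chaperone gene is also given without replicate 1 where that changes its call. The part of the marker changes in the chaperone results was not tested. In such bulk RNA, fewer cells of a type and less RNA per cell cannot be told apart.

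Of the 85 genes, 70 passed the filter on low counts, and 15 did not: Hspa1a, Hspa8, Hspb1, Hspb2, Hspb3, Hspb7, Hspb9, Dnajb3, Dnajb7, Dnajb8, Dnajc5b, Dnajc5g, Dnajc6, Cct6b and Cct8l1. Hspb3, Dnajb8 and Cct8l1 had 0 counts in the 6 libraries. NRG1 and mock were compared with edgeR's quasi-likelihood test on all 9740 genes that passed the filter, with the replicate number as a block. At an adjusted p of at most 0.01, 16 chaperone genes rose and 4 fell, which is 22.9% and 5.71% of the 70 tested, while 6.31% of all genes tested rose and 5.51% fell. The share that rose was thus above that of all genes and the share that fell was close to it. Many chaperone transcripts are abundant, and the shares were not compared at matched levels. Log2 fold changes were between 0.54 and 1.58 for the genes that rose and between -0.62 and -1.13 for those that fell, and all 20 moved the same way in the 3 pairs. Of the 70, 26 were higher after NRG1 in all 3 pairs and 18 lower, against 25.7% and 30.4% of all genes. The NRG1 samples lay wholly above the mock samples for 15 and wholly below for 5, against 10.2% and 9.94% of all genes. With the additional demand of an absolute log2 fold change over 1, there were 3 genes up (Hspb8, Hspe1 and Hspd1), beside 1.56% of all genes, and 1 down (Hspa2), beside 1.91% of all genes. The median log2 fold change over the 70 genes was 0.05 and that over all genes tested -0.03. Without replicate 1 the test gave 15 up and 6 down, without replicate 2 it gave 8 up and 3 down, and without replicate 3 it gave 11 up and 3 down. A fit on 2 pairs estimates the spread anew, so its adjusted p is not on the same scale as that of the fit on 3 pairs. Treated as unpaired samples, the 6 libraries gave 0 in edgeR and 2 up and 1 down in DESeq2. In the unpaired edgeR fit, 21 of the 70 chaperone genes had an unadjusted p under 0.05, beside 1334 of all 9740 genes.

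**Figure D1:**
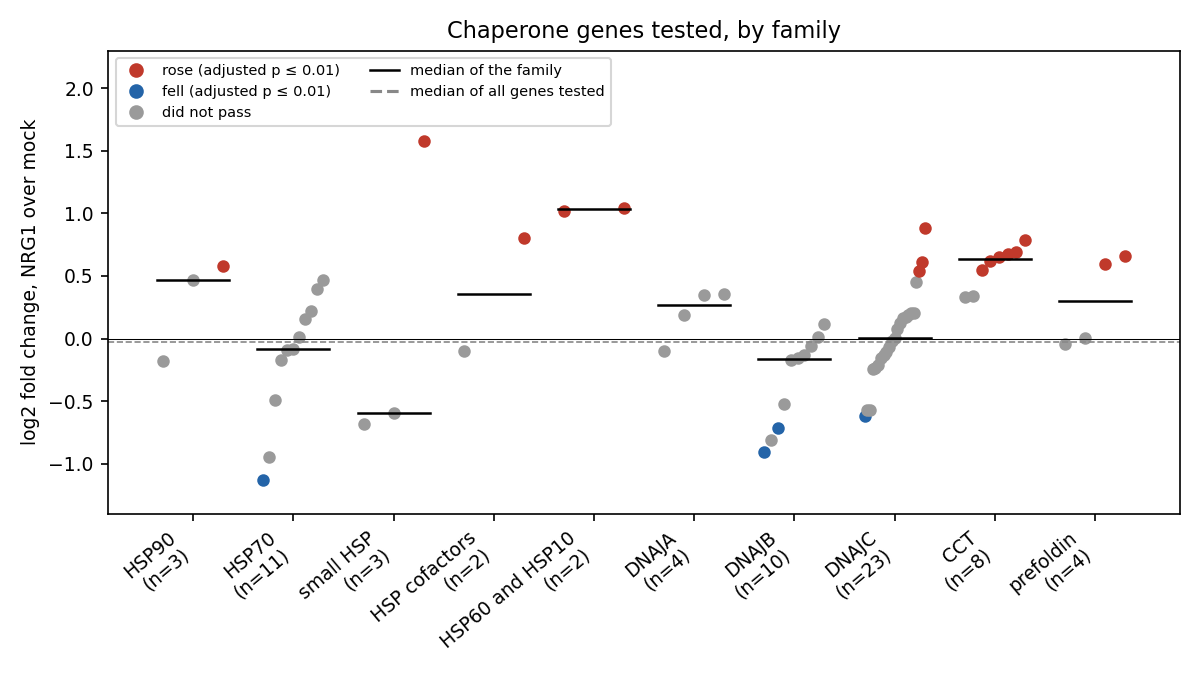
Fitted log2 fold change (NRG1 over mock, vertical axis) of the 70 chaperone genes tested, by family along the horizontal axis. Red points rose and blue points fell at an adjusted p of at most 0.01, grey points did not pass, short black lines are family medians and the dashed line is the median of all genes tested, -0.03; the CCT subunits all lie above 0, with a family median of 0.63, while the DNAJB median is -0.16.

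The mitochondrial chaperonin rose about as much in its ring subunit as in its lid. Hspd1, which encodes HSP60, was counted at 84.0, 81.1 and 59.0 CPM in mock samples 1, 2 and 3 and at 159, 198 and 107 CPM in NRG1 samples 1, 2 and 3. Hspe1, which encodes HSP10, was counted at 69.3, 61.7 and 71.3 CPM in the mock and 141, 175 and 111 CPM in the NRG1 samples. For both genes every NRG1 sample lay above every mock sample. The log2 fold change was 1.02 (SE 0.13, adjusted p = 7.97e-05) for Hspd1 and 1.05 (SE 0.15, adjusted p = 0.000244) for Hspe1, which is 2.02-fold and 2.07-fold. The log2 ratios of pairs 1, 2 and 3 were 0.91, 1.29 and 0.85 for Hspd1 and 1.02, 1.5 and 0.63 for Hspe1, so that pair 2 had the steepest rise in both. Without replicate 2 both still passed the test, with log2 fold changes of 0.89 (adjusted p = 0.000192) and 0.82 (adjusted p = 0.000629), under the fold threshold.

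Hspd1 and Hspe1 lie head to head, on opposite strands, and their promoter windows in RefSeq (GRCr8 assembly, from 250 bases before to 50 bases after the transcript start) share 211 bases. The window of Hspe1 is shown because the shared part carries a run of matches to the inverted repeat of the heat shock element. That element is the site bound by the factor HSF1. Only the short repeat was searched here, as GAANNTTC or TTCNNGAA on either strand. Capitals mark 3 overlapping matches, which begin 65, 60 and 55 bases before the start of Hspe1. The Hspb8 window, with 1 match 23 bases before the start, is that of the chaperone gene with the largest rise. The Cct5 window has a match 170 bases before the start, and the Hspa2 window, of the gene that fell most, has one 64 bases before the start. The Hspa5 window has no such match and is shown for contrast: its capitals mark an ER stress response element (CCAAT and CCACG with 9 bases of any kind between them), 43 bases before the start.
Hspe1, chr9:64084077-64084376, plus strand: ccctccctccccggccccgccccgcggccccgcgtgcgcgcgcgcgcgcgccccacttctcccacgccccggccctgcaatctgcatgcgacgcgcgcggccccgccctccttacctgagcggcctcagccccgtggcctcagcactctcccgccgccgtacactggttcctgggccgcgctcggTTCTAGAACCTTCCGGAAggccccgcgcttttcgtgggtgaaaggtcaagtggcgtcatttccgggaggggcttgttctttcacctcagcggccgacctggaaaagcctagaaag
Hspb8, chr12:45837058-45837357, plus strand: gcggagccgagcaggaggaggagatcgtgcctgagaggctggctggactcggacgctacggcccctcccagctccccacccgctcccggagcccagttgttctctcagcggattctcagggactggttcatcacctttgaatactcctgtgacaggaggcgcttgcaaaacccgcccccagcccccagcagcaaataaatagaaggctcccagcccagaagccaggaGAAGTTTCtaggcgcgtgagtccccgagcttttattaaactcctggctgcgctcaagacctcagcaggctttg
Cct5, chr2:84313724-84314023, minus strand: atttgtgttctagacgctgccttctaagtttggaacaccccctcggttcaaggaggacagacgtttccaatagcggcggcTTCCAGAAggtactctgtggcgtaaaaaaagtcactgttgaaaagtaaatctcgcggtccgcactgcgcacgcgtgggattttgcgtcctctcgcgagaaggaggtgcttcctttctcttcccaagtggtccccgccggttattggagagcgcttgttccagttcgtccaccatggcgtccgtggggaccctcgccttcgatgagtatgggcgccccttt
Hspa2, chr6:100864192-100864491, plus strand: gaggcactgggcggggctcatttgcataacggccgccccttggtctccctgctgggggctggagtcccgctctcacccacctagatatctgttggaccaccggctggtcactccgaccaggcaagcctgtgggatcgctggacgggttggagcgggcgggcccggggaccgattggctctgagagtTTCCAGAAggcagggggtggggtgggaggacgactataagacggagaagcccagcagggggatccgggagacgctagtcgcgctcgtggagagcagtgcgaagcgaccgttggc
Hspa5, chr3:38452766-38453065, plus strand: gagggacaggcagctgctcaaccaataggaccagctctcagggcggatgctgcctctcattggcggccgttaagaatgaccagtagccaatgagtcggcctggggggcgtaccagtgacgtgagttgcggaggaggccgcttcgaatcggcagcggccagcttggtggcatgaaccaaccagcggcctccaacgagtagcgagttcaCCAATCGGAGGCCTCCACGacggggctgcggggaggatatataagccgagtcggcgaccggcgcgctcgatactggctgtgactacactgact
RefSeq windows were matched by symbol for 69 of the 85 genes. The inverted repeat of the heat shock element was in 18 of these windows, against 15.4% of the 27457 promoters in the table. Among genes tested it was in 15 of 57 matched chaperone genes, against 11.2% of all promoters of genes tested. It was in 5 of the 13 matched genes that rose, 2 of the 4 that fell and 8 of the 40 that did not pass. Hspd1 and Hspe1 are 2 of the 5 and carry the same matches in their shared bases, so they are not separate occurrences. The repeat was therefore not limited to the genes that rose. The ER stress response element was in 3 windows (Hspa5, Hsp90b1 and Dnajc3), none of which passed the test, against 0.201% of the promoters of genes tested. CACGTG, the E-box bound by Myc and related factors, was in 5 windows (Hspa9, Hspbap1, Dnajb9, Dnajc16 and Dnajc25), 1 of a gene that rose and 1 of a gene that fell, against 9.67% of the promoters of genes tested. A match is a sequence of letters and was not tested as a binding site.

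The CCT ring is built of 8 different subunits, and all 8 ubiquitous subunit genes were higher after NRG1 in each pair, and 6 of them rose past the threshold. Tcp1, subunit 1, was at 66.4, 67.3 and 69.9 CPM in mock samples 1, 2 and 3 and at 93.7, 153 and 113 CPM in the NRG1 samples, for a log2 fold change of 0.79 (SE 0.14, adjusted p = 0.00110). Cct5, the epsilon subunit, was at 331, 354 and 443 CPM in mock and 509, 676 and 642 CPM in NRG1 samples, for a log2 fold change of 0.70 (SE 0.13, adjusted p = 0.00161). In both genes the lowest NRG1 sample exceeded the highest mock sample. Cct3 went from 296 ± 33.2 to 482 ± 122, Cct6a from 144 ± 8.49 to 229.6 ± 58.1 and Cct7 from 171 ± 13.6 to 265 ± 48.5 CPM (mean ± SD, n = 3 in each group). Their log2 fold changes were 0.68 (SE 0.13, adjusted p = 0.00235), 0.65 (SE 0.13, adjusted p = 0.00333) and 0.62 (SE 0.13, adjusted p = 0.00484), and their groups did not overlap either. Cct8, with 261, 332 and 390.2 CPM in mock and 359, 595 and 494 CPM in NRG1 samples, overlapped between the groups because mock sample 3 exceeded NRG1 sample 1, and rose by 0.54 (SE 0.13, adjusted p = 0.00858) on the log2 scale.

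Cct2 and Cct4 had the smaller changes of the ring and did not pass. Cct2 was at 245, 248 and 241 CPM in mock and at 268, 370.2 and 301 CPM in NRG1 samples, for a log2 fold change of 0.34 (SE 0.13, adjusted p = 0.0642). Cct4 was at 302, 309 and 353 CPM in mock and 330.5, 495 and 403 CPM in NRG1 samples, for a log2 fold change of 0.33 (SE 0.13, adjusted p = 0.0877). Groups of Cct2 did not overlap while those of Cct4 did. Whether these 2 subunits changed less than the other 6 was not tested. Summed over the family, CCT transcripts took 0.173%, 0.191% and 0.218% of the gene counts in the mock libraries of replicates 1, 2 and 3 and 0.229%, 0.354% and 0.285% in their NRG1 counterparts. The summed level in CPM was 1.33, 1.82 and 1.33 times the mock level in pairs 1, 2 and 3. Pair 2 had the largest log2 ratio in each of the 8 subunits. Without replicate 2, Cct6a (adjusted p = 0.0125), Cct7 (0.0190) and Cct8 (0.0341) no longer passed, and Cct8 was also lost without replicate 1 (0.0102) and without replicate 3 (0.0152). The paralogue Cct6b, described as a testis form, had between 2 and 9 counts per library, and Cct8l1 had none.

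**Figure D2:**
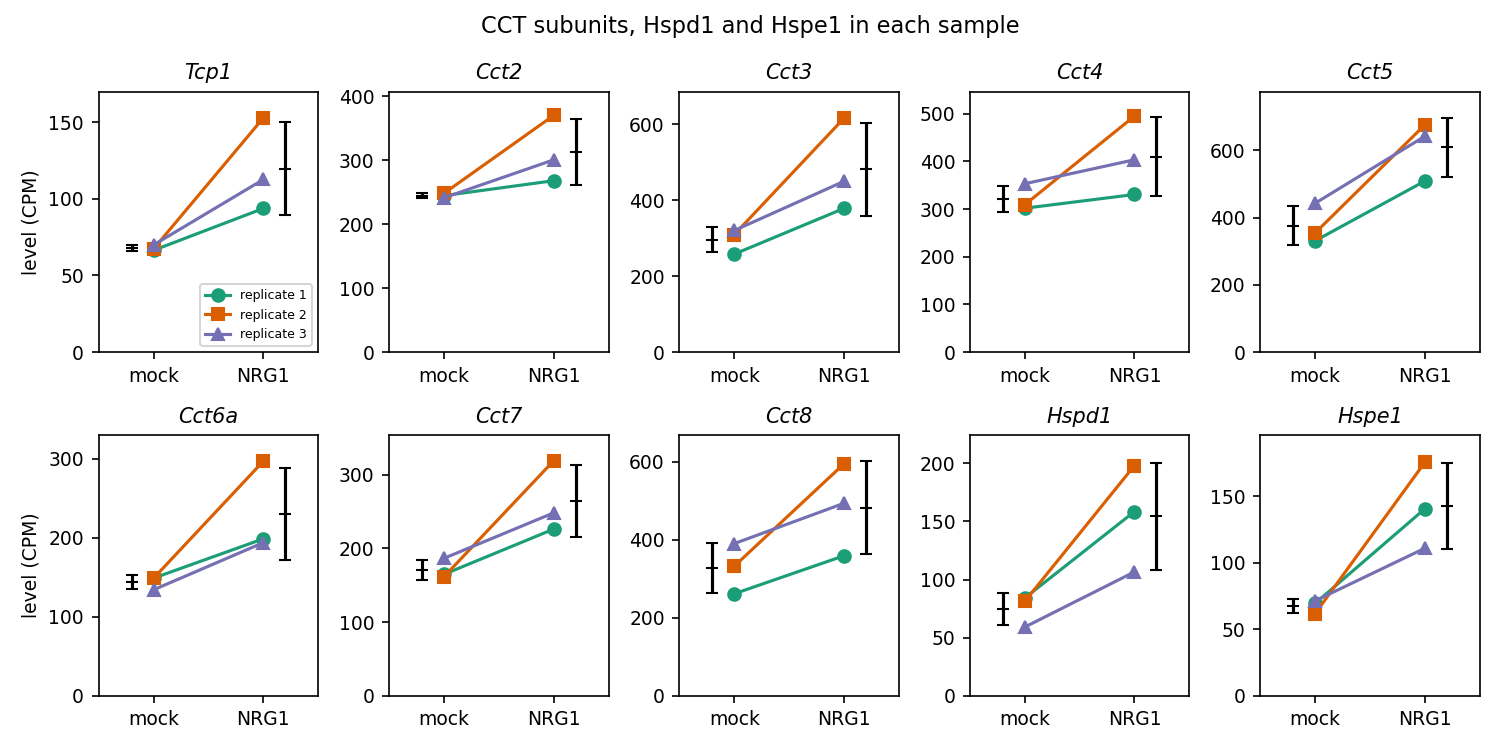
Level in CPM (vertical axes, from 0) of the 8 CCT subunit genes, Hspd1 and Hspe1 in mock and NRG1 samples. Coloured lines join the 2 samples of a replicate and black bars give the mean ± SD of 3 samples; every line rises, and replicate 2 has the highest NRG1 level in all 10 genes.

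Prefoldin, a hexamer that hands actin and tubulin chains to CCT, had 4 subunit genes tested, of which 2 rose. Of the other subunits, Vbp1 and Pfdn4 had no entry under these symbols in the gene counts. Pfdn2 was at 37.4, 40.1 and 51.1 CPM in mock and 58.8, 79.2 and 66.4 CPM in NRG1 samples with no overlap, a log2 fold change of 0.66 (SE 0.14, adjusted p = 0.00349). Pfdn6 was at 29.1, 38.6 and 43.2 CPM in mock and 41.2, 72.7 and 56.7 CPM in NRG1 samples, for a log2 fold change of 0.60 (SE 0.14, adjusted p = 0.00652). Its groups overlapped since NRG1 sample 1 lay below mock sample 3. Without replicate 2 the adjusted p was 0.0116 for Pfdn2 and 0.0200 for Pfdn6, over the threshold. Pfdn1 and Pfdn5 had log2 fold changes of 0.01 (SE 0.13) and -0.04 (SE 0.14), with a higher NRG1 than mock level in pair 2 and a lower one in pairs 1 and 3.

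Of the 3 HSP90 genes, 1 rose past the threshold. Hsp90aa1, the stress-inducible cytosolic form, was at 118, 119.6 and 80.4 CPM in mock and 151, 217 and 116 CPM in NRG1 samples and rose by 0.58 (SE 0.13, adjusted p = 0.00481) on the log2 scale. NRG1 sample 3 lay under mock samples 1 and 2, so the groups overlapped although each pair rose. The adjusted p of Hsp90aa1 was 0.0168 without replicate 2 and 0.0157 without replicate 3, both over the threshold. Hsp90ab1, the constitutive cytosolic form, was at 1491, 1722 and 1472 CPM in mock and 2084, 2529.7 and 1905 CPM in NRG1 samples. Its groups did not overlap, but the log2 fold change of 0.47 (SE 0.13, adjusted p = 0.0195) did not pass in edgeR, while it did in DESeq2 with the block. Hsp90b1, the ER form, had 1885, 1169 and 1641 CPM in mock and 1370.1, 1186 and 1533 CPM in NRG1 samples, for a log2 fold change of -0.18 (SE 0.14, adjusted p = 0.385) that did not pass.

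Of the 13 HSP70 genes, 11 were tested, and 1 fell and none rose in edgeR. In that fit 2 of the 11 had an unadjusted p under 0.05 upwards and 3 downwards, beside 3479 of all 9740 genes in either direction. In DESeq2 with the block, 1 (Hspa4) rose. Hspa2, an HSP70 best known from spermatogenesis, was at 73.6, 192 and 161 CPM in mock samples 1, 2 and 3 and at 37.5, 80.0 and 72.7 CPM in NRG1 samples 1, 2 and 3. The mock and NRG1 samples of replicate 1 were the lowest of their groups, and the groups overlapped because mock sample 1 lay under NRG1 sample 2. Within pairs the log2 ratios were -0.97, -1.26 and -1.15, and the log2 fold change was -1.13 (SE 0.12, adjusted p = 2.47e-05), the smallest adjusted p of the chaperone genes. Without replicate 1, in which fibroblast and mural genes were high, it was -1.20 (SE 0.18, adjusted p = 2.25e-09). The SE was larger in that fit on 2 pairs, so its smaller adjusted p is not to be read as stronger evidence.

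Hspa4, a nucleotide exchange factor of the HSP110 group, and Hspa9, the mitochondrial HSP70 mortalin, were higher in each pair without passing, with log2 fold changes of 0.47 (SE 0.13, adjusted p = 0.0189) and 0.40 (SE 0.12, adjusted p = 0.0315). Without replicate 1, Hspa4 passed, with a log2 fold change of 0.61 (SE 0.18, adjusted p = 0.00776). Hspa5, the ER form, was at 1995, 1340.0 and 1878 CPM in mock and 1484, 1452 and 1919 CPM in NRG1 samples, and its log2 fold change of -0.09 (SE 0.14, adjusted p = 0.679) came from a lower level in pair 1 and slightly higher levels in pairs 2 and 3. Hspa12a, a distant relative of HSP70, had a log2 fold change of -0.49 (SE 0.14, adjusted p = 0.0216), and was below mock in each pair. The stress-inducible Hspa1b had few reads, with 81, 44 and 62 counts in mock and 69, 18 and 31 counts in NRG1 samples. The fitted log2 fold change was -0.95 (SE 0.28, adjusted p = 0.0247), and without replicate 1 it was -1.45 (SE 0.35, adjusted p = 0.000466), past the threshold. Its near-identical neighbour Hspa1a had at most 2 counts in a library, so the split of reads between them is uncertain. Hspa8, which encodes the constitutive HSC70 and has many processed copies in the genome, had between 3 and 20 counts per library. The files place between 3739258 and 9828040 alignments per library outside the gene counts because they fitted more than 1 place, and whether Hspa8 reads are among them was not tested, so its level here is not a measure of the gene.

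The HSP70 cofactor Hspbp1, which releases nucleotide from HSP70, was at 44.0, 75.9 and 100.2 CPM in mock and 81.2, 149 and 149 CPM in NRG1 samples. It rose in each pair, by 0.88, 0.97 and 0.57 on the log2 scale, and its fitted log2 fold change was 0.80 (SE 0.12, adjusted p = 0.000454). The groups overlapped, since NRG1 sample 1 lay under mock sample 3, and both libraries of replicate 1 were the lowest of their groups. Hspbap1, which binds the small heat shock protein HSP27, had a log2 fold change of -0.10 (SE 0.16) and did not pass.

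Among the small heat shock proteins, Hspb8 had the largest rise of all chaperone genes. Hspb8, which works with the cochaperone Bag3 in autophagic removal of misfolded proteins and is mutated in inherited motor neuropathy, was at 11.6, 6.07 and 8.19 CPM in mock samples 1, 2 and 3 and at 21.9, 31.4 and 24.1 CPM in NRG1 samples 1, 2 and 3. All NRG1 samples lay above all mock samples, and the log2 fold change was 1.58 (SE 0.22, adjusted p = 0.000203), or 2.98-fold. The log2 ratios of the 3 pairs were 0.90, 2.31 and 1.54, the widest spread between pairs among the genes that rose, and leaving out a replicate gave log2 fold changes of 1.91, 1.26 and 1.61 without replicate 1, 2 and 3. Its partner Bag3 had a log2 fold change of 0.16 (SE 0.12, adjusted p = 0.357) and did not pass.

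Hspb1, which encodes HSP27, stood out by its difference between cultures. It had 864 and 982 counts in the mock and NRG1 libraries of replicate 1 and between 7 and 9 counts in each of the other 4 libraries. This was 115, 1.04 and 0.630 CPM in the mock and 131, 0.787 and 0.581 CPM in the NRG1 libraries of replicates 1, 2 and 3. The level in replicate 1 was 111 and 183 times that of replicates 2 and 3 in mock and 166 and 225 times in NRG1 samples. The gene did not pass the filter on all 6 libraries. Its log2 fold change between treatments was 0.16 (adjusted p = 0.494) without replicate 2 and 0.16 (adjusted p = 0.734) without replicate 3, where it passed the filter, and it was not called. Both fits include replicate 1, whose log2 ratio was 0.18, beside a pair with 7 to 9 counts per library. They are therefore not separate estimates. Hspb6 (HSP20) followed replicate 1 in the same direction, with 28.5, 8.73 and 8.75 CPM in mock and 29.3, 4.38 and 4.0 CPM in NRG1 samples, and its log2 fold change of -0.59 (SE 0.23, adjusted p = 0.0744) did not pass. Its log2 ratio was 0.04 in replicate 1 and -0.97 and -1.11 in replicates 2 and 3, and without replicate 1 its log2 fold change was -1.06 (SE 0.29, adjusted p = 0.00305). Col3a1, Pdgfra and Acta2, markers of fibroblasts and mural cells, were also high in replicate 1, with Acta2 at 1813, 4.59 and 0.788 CPM in the mock samples. The part of other cell types in the levels of Hspb1 and Hspb6 was not tested. Hspb11, which shares the prefix but encodes an intraflagellar transport protein, had a log2 fold change of -0.68 (SE 0.24, adjusted p = 0.0579) and did not pass.

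**Figure D3:**
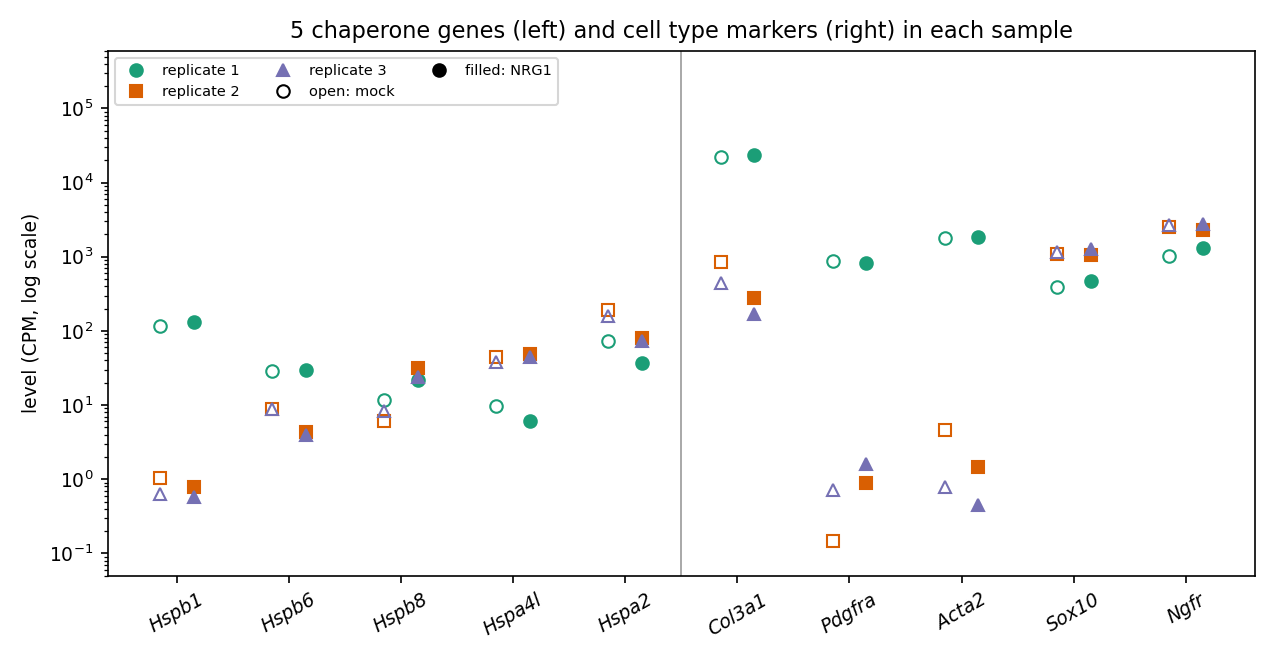
Level in CPM on a log axis of 5 chaperone genes (left of the line) and 5 cell type markers (right) in each of the 6 samples, with colour and shape for the replicate and open or filled symbols for mock or NRG1. Hspb1 in replicate 1 lies at 115 and 131 CPM against 0.581 to 1.04 CPM elsewhere, and Pdgfra and Acta2 are split in the same way, while Sox10 and Ngfr, Schwann cell genes, are lowest in replicate 1.

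Of the 43 genes of DNAJ proteins, the partners of HSP70, 37 were tested, 3 rose and 3 fell. These are 8.11% each, near the 6.31% and 5.51% of all genes tested. None of the 4 class A genes passed in edgeR or in DESeq2 with the block. In edgeR 2 of them had an unadjusted p under 0.05, beside 3479 of all 9740 genes. Dnajb2, a neuronal cochaperone that sorts clients for degradation and is mutated in inherited motor neuropathy, was at 175, 182 and 170.3 CPM in mock and 96.3, 85.4 and 99.6 CPM in NRG1 samples. The NRG1 samples lay far below the mock samples with little spread in either group, and the log2 fold change was -0.91 (SE 0.12, adjusted p = 0.000134), or 0.533 of the mock level. Dnajb9, an ER cochaperone of BiP that is induced by ER stress, was at 93.8, 71.3 and 67.1 CPM in mock and 58.1, 47.2 and 37.3 CPM in NRG1 samples, without overlap, and fell to 0.610 of the mock level, a log2 fold change of -0.71 (SE 0.12, adjusted p = 0.000879). Dnajc27, which joins a J domain to a small GTPase of the Rab type, fell from 27.8 ± 2.45 to 18.2 ± 3.77 CPM (mean ± SD, n = 3 in each group), equal to a log2 fold change of -0.62 (SE 0.15, adjusted p = 0.00871). The call of Dnajb9 was lost without replicate 3 (adjusted p = 0.0163), and that of Dnajc27 without replicate 2 (0.0326) and without replicate 3 (0.0619). Dnajc27 also did not pass in DESeq2 with the block (-0.61, adjusted p = 0.0240).

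The 3 DNAJ genes that rose were all of class C. Dnajc2, a cochaperone of HSP70 at the ribosome, was at 62.0, 52.2 and 48.7 CPM in mock and 78.4, 95.9 and 75.3 CPM in NRG1 samples without overlap, a log2 fold change of 0.61 (SE 0.13, adjusted p = 0.00403). Dnajc11, a mitochondrial protein associated with the cristae-organising MICOS complex, was at 47.2, 58.7 and 70.8 CPM in mock and 67.2, 91.3 and 99.3 CPM in NRG1 samples. Its groups overlapped while its pairs rose by nearly equal log2 ratios of 0.51, 0.63 and 0.49, and the log2 fold change was 0.54 (SE 0.12, adjusted p = 0.00452). Dnajc25 was at 20.8, 9.91 and 10.6 CPM in mock and 28.5, 24.9 and 20.2 CPM in NRG1 samples, for a log2 fold change of 0.88 (SE 0.18, adjusted p = 0.00282). The mock sample of replicate 1 was about as high as the NRG1 sample of replicate 3. These calls were less stable than those of Hspd1 and Hspe1: without replicate 2 the adjusted p was 0.0132 for Dnajc2 and 0.0124 for Dnajc25. Without replicate 3 it was 0.0186 for Dnajc2, 0.0222 for Dnajc11 and 0.0107 for Dnajc25, and without replicate 1 it was 0.0133 for Dnajc11.

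The DNAJ gene with the most reads in each class did not pass. Dnaja1, the main cytosolic partner of HSP70, had a log2 fold change of 0.19 (SE 0.13, adjusted p = 0.328), Dnajb11, an ER cochaperone of BiP, of 0.01 (SE 0.12, adjusted p = 0.967), and Dnajc7, which also binds HSP90, of -0.02 (SE 0.13, adjusted p = 0.920). Dnajb1, the heat-inducible HSP40, was at 82.7, 92.8 and 101 CPM in mock and 80.8, 113 and 107 CPM in NRG1 samples, for a log2 fold change of 0.11 (SE 0.12, adjusted p = 0.528). Dnaja3, the mitochondrial class A protein, had the largest change of its class, 0.35 (SE 0.13, adjusted p = 0.0611), with NRG1 samples above mock samples throughout. Just over the threshold was Dnajb4, with 68.1, 64.8 and 43.3 CPM in mock and 41.2, 44.4 and 35.1 CPM in NRG1 samples and a log2 fold change of -0.52 (SE 0.13, adjusted p = 0.0103). It passed with RLE size factors, with robust empirical Bayes, with at least 10 counts demanded in every sample and without the filter (adjusted p from 0.00165 to 0.00980), and not in DESeq2 with the block (0.0193) or without replicate 1 (0.108), 2 (0.0167) or 3 (0.0206). Dnajb13, an axonemal protein of cilia and sperm, had a log2 fold change of -0.81 (SE 0.22, adjusted p = 0.0167) and passed without replicate 3 (-1.21, SE 0.30, adjusted p = 0.00587).

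**Figure D4:**
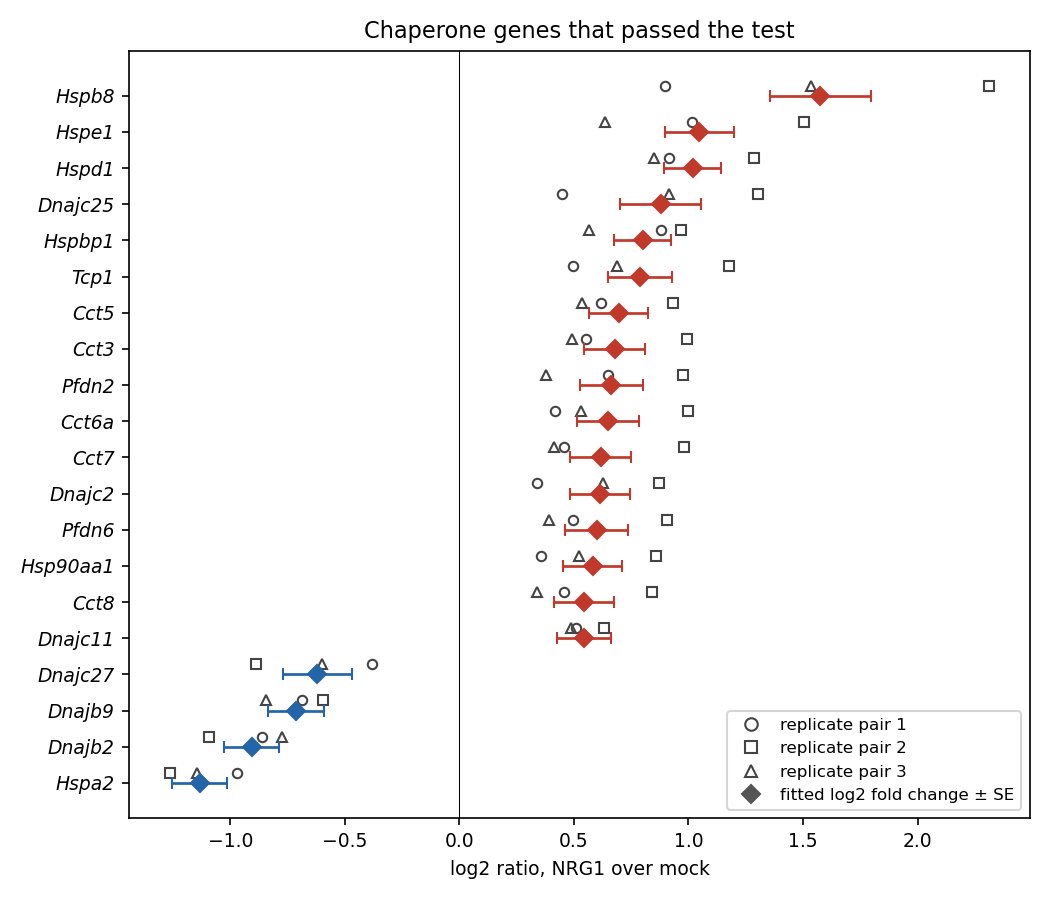
Log2 ratio of NRG1 over mock (horizontal axis) for the 20 chaperone genes that passed the test. Diamonds with bars are the fitted log2 fold change ± SE, red for a rise and blue for a fall, and open symbols are the single pairs; all pairs of a gene lie on the same side of 0, and pair 2 (squares) lies farthest to the right in all 16 genes that rose.

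The rises were steepest in pair 2. Among the 16 chaperone genes that rose, the median log2 ratio was 0.50 in pair 1, 0.98 in pair 2 and 0.53 in pair 3, and pair 2 had the largest ratio in 16 of 16. Among all 615 genes that rose, the medians were 0.73, 0.90 and 0.68, and pair 2 had the largest ratio in 337. Among the 4 chaperone genes that fell, the medians were -0.77, -0.99 and -0.81. With 1 sample of each kind per culture, a difference in response between cultures could not be tested. Over all 85 chaperone genes, the share of gene counts was 1.11%, 1.04% and 1.15% in the mock libraries of replicates 1, 2 and 3 and 1.12%, 1.41% and 1.27% in their NRG1 counterparts.

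Other genes of the chaperone network were followed in 4 lists. These lists were chosen with earlier results of these data known, so the shares below are a description and were not tested. Of the 103 list genes tested, 19 rose (18.4%) and 0 fell, and without replicate 1 the counts were 16 and 1. Calls of single list genes are given for the full fit only. The list of HSF factors and cochaperones of HSP70 and HSP90 also held Cryab and Serpinh1, which are neither. Of its 30 genes, 30 were tested, 7 (23.3%) rose, against 6.31% of all genes tested, and none fell. Their median log2 fold change was 0.30 against -0.03 over all genes tested. The 7 were mostly HSP90 partners: Stip1, which links HSP70 to HSP90 (0.76), the ATPase activator Ahsa1 (0.61), the kinase adaptor Cdc37 (0.64), the receptor-associated immunophilins Fkbp4 (0.69) and Fkbp5 (0.70), the phosphatase Ppp5c (0.61), and Hsph1, an HSP110 exchange factor (0.64), all as log2 fold changes. The heat shock factor Hsf1 had a log2 fold change of 0.49 (SE 0.13, adjusted p = 0.0145) and Hsf2 of -0.14 (SE 0.12, adjusted p = 0.431), and neither passed. Of 29 tested genes of ER folding and the unfolded protein response, none rose and none fell in edgeR or, with the block, in DESeq2. At an unadjusted p under 0.05 in edgeR, 5 of the 29 were lower and 0 higher after NRG1. Of all 9740 genes tested, 3479 had such a p in either direction. The median log2 fold change of the 29 was -0.09.

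Of 20 tested genes of mitochondrial proteostasis, 4 rose (20%, against 6.31% of all genes tested): the import channel Tomm40 (0.99, SE 0.13, adjusted p = 0.000105), the import translocase subunit Timm23 (0.63, SE 0.15, adjusted p = 0.00883) and the prohibitins Phb (0.77, SE 0.15, adjusted p = 0.00202) and Phb2 (0.84, SE 0.12, adjusted p = 0.000318). The remaining 16 of this list did not pass, among them the import genes Tomm20 (0.20), Tomm22 (0.20) and Timm44 (-0.01). Of 24 tested partners and clients of CCT and prefoldin, 8 rose (33.3%, against the same 6.31%). They were the ATPases Ruvbl1 (0.88 on the log2 scale) and Ruvbl2 (1.14), which act with a prefoldin-like complex, and the tubulins Tuba1a (0.60), Tuba1b (1.00), Tuba1c (1.01), Tubb2b (0.70), Tubb4b (0.84) and Tubb5 (0.70). The other 16 did not pass, among them Uri1 (0.02), Uxt (0.32), Pdrg1 (0.14), Rpap3 (-0.09) and Pih1d1 (0.01). Pdcl (-0.09), Pdcl3 (-0.01), Txndc9 (0.06), Tbca (0.01), Tbcc (0.16), Tbcd (0.07) and Tbce (-0.08) were also among these 16. The tubulins Tubb2a (0.42, adjusted p = 0.0282) and Tubg1 (0.08, adjusted p = 0.682) did not pass either. Tubulin genes made up all of the 8 that rose but Ruvbl1 and Ruvbl2. They are closely similar in sequence, so the split of reads among them is uncertain. The share of 33.3% is therefore not a count of independent genes. The actins Actb and Actg1, the other clients of CCT, had log2 fold changes of 0.44 (SE 0.13, adjusted p = 0.0306) and 0.73 (SE 0.26, adjusted p = 0.0587) and did not pass.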

How the data were processed

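RNA of 3 mock and 3 NRG1 samples was analysed, 1 pair per independent cell preparation. The authors mapped the reads to rn5 with TopHat2 2.0.10 and assigned them to RefSeq genes with HTSeq. The deposited values are raw counts. The strand setting is not given in the sources used here. The HTSeq summary lines, between 50.1% and 53.0% of the alignments, were kept out of library sizes and tests. Counts were filtered with filterByExpr (minimum count 10), which left 9740 genes and removed 7587, normalised with TMM and tested with edgeR 4.0.16 (quasi-likelihood, replicate block as in the study's paired design) in R 4.3.3, with Benjamini-Hochberg adjustment over all 9740 genes. The call was an adjusted p of at most 0.01. The SE is the size of the fold change on the log2 scale over the root of the F statistic. Pair ratios use a prior count of 2.

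Same-numbered samples came from the same preparation, and their deviations from group means correlated across genes with r of 0.91, 0.67 and 0.81 (different numbers, -0.80 to 0.51). No 2 libraries were alike within counting noise (smallest chi-square over its degrees of freedom, 18.5). The chaperone genes and the 4 lists were chosen with earlier results of these data known. Named were all genes that passed, all CCT and prefoldin subunits, the gene with the most reads and the one with the largest change in each other family, Hsf1, Hsf2, Hsph1 and the list genes that passed. Other genes named were chosen after their values were seen. Alternatives were no block, DESeq2 1.42.0, RLE size factors, other filters, robust empirical Bayes, an adjusted p of 0.05 and leaving out each replicate. Promoter windows are those of RefSeq (GRCr8), and no coordinates of rn5 were used. The scripts were tested on simulated counts. Some Schwann cell markers are not reported here.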

Additional observations from a re-analysis of the deposited data

How the results depend on the processing

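The fit with no replicate block, which treats the paired samples as unpaired, changed the calls most: it gave 0 chaperone genes up and 0 down, with or without the fold threshold, 0 genes up and 0 down of all genes and 0 up in the 4 lists, with a smallest adjusted p among the chaperone genes of 0.14 and an unadjusted p under 0.05 in 1334 of all 9740 genes. DESeq2 with no replicate block, added after seeing the data, gave 2 chaperone genes up and 1 down (0 down with the fold threshold), 114 and 70 of all genes and 3 up in the lists. All 20 called chaperone genes kept their sign in these fits and in every other alternative. With the block, DESeq2 gave 18 up and 3 down, with 19 genes shared with edgeR; Hsp90ab1 and Hspa4 were added and Dnajc27 lost.

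Leaving out 1 replicate gave from 8 to 15 chaperone genes up and from 3 to 6 down, from 1 to 4 up and from 1 to 3 down with the fold threshold, from 408 to 590 up and from 253 to 601 down of all genes, and from 15 to 16 up and from 0 to 1 down in the lists. Without the filter, 8 chaperone genes fell (Dnajb4, Dnajb13, Hspa12a and Hspa1b in addition), 857 of all genes fell and 1 list gene fell. With at least 10 counts in every sample 1 list gene fell. An adjusted p of 0.05 gave 19 chaperone genes up and 9 down, 1124 and 1136 of all genes and 4 list genes down. RLE size factors and robust empirical Bayes, which each added Dnajb4, as did at least 10 counts in every sample, and symbol matching without regard to case (85 genes) changed no count by more than 1.5 times. The cause of these differences was not tested. Of the 15 chaperone genes under the filter, the unfiltered edgeR fit tested 12 and called 0, with a smallest adjusted p of 0.118. An unadjusted p under 0.05 was found for 2 of the 12 (Hspa8 and Hspb9), beside 3819 of all 13129 genes in that fit. Apart from Hspb1 the counts of these 15 genes are low, which limits what can be detected.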

Other observations

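A smaller share of chaperone genes than of all genes differed widely between the cultures. The log2 level of replicate 1 minus the mean of replicates 2 and 3, averaged over mock and NRG1, exceeded 1 in size for 5 of the 70 chaperone genes tested (7.14%) and for 1356 of the 9740 genes tested (13.9%), values given as a description with no test. The 5 were Hspb6 (2.22), Hspa1b (1.52) and Hspa1l (1.07), higher in replicate 1, and Hspa4l (-2.47) and Hspa2 (-1.14), lower in it. Hspa4l, an HSP110 family member, was at 9.62, 44.1 and 38.3 CPM in mock samples 1, 2 and 3 and at 6.13, 48.1 and 45.0 CPM in NRG1 samples 1, 2 and 3, with a log2 fold change between treatments of 0.01 (SE 0.16). Hspb1, outside the test, had a difference of 7.05, and 76 of the 9871 genes with at least 10 counts in both libraries of replicate 1 were higher there by as much or more.

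Cryab, a small heat shock protein whose name falls outside the symbol rule, went the other way from Hspb1, with 17.1, 109.5 and 100.5 CPM in the mock and 23.1, 106 and 65.4 CPM in the NRG1 samples. Serpinh1, the collagen chaperone HSP47, stayed within 1777 to 2089 CPM in all 6 libraries.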
